A study of Mus musculus with 2 samples.

Results

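The angiopoietin system of the postischemic mouse kidney was described here through 5 genes chosen by name: the ligand genes Angpt1 and Angpt2, the receptor genes Tek and Tie1, and Ptprb, the gene of a phosphatase that acts on the receptor. These are 5 of the 32285 genes counted. Angiopoietin-1 binds and activates the receptor Tie2, the product of Tek, on endothelial cells and holds vessels quiescent, whereas angiopoietin-2 binds the same receptor and blocks or weakly activates it depending on the setting. Tie1 has no established angiopoietin ligand of its own and pairs with Tie2. Ptprb encodes vascular endothelial protein tyrosine phosphatase (VE-PTP), which removes phosphate from Tie2.

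Whole injured kidneys were dissociated 14 days after unilateral ischemia-reperfusion injury (IRI, 25 minutes of clamping, mice of 8 to 10 weeks), and single-cell RNA sequencing was run on 1 library per genotype. The PHDTiEC mouse carried Cdh5-CreERT2 with floxed alleles of Phd1, Phd2 and Phd3 (Egln2, Egln1 and Egln3), the prolyl hydroxylases that mark hypoxia-inducible factor (HIF) for degradation, and the Cre- littermate lacked the recombinase (the labels give no allele for it). Both mice were male and received 4 tamoxifen injections of 3 mg from the day after injury. The Cdh5 promoter drives recombination in endothelium, so the other cell types were not targeted. With 1 mouse per genotype no test between genotypes was possible, and cells of 1 mouse are not replicates. Every interval given is a 95% interval that covers counting error of unique molecular identifiers (UMIs) only. It leaves out variation between cells and between mice, and can be too narrow where few barcodes hold many UMIs of a gene.

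After filtering, 8548 barcodes of the Cre- library and 9309 of the library labelled PHDTiEC were kept, with a median of 7500 and 7898 UMIs, and 28 barcode sequences occurred in both. They formed 30 clusters, built without the 5 genes, and each was named from marker genes only where enough markers were found. The class called pericyte-like was named from a joint list of pericyte or smooth muscle markers. Its leading genes included Myh11, Acta2, Ren1 and Rgs5, so the name does not tell pericytes from smooth muscle or renin cells. The endothelial-like class held 400 and 549 barcodes in 3 clusters: arterial-like (183 and 225), capillary-like (127 and 211) and cluster 23 (90 and 113), whose leading genes mixed arterial (Cldn5, Sox17, Fbln5) with mural genes (Rgs5, Myh11). Summed over the 10 endothelial markers that named it, that class read 5757 and 6604 CPM (UMIs scaled to a class total of 1000000), and over 10 pericyte or smooth muscle markers 3338 and 3379. In cluster 23, only 1 of 90 and 5 of 113 barcodes carried fewer than 3 markers of another lineage. The targeted genes were not lower under the PHDTiEC label: Egln1 stood at 67.6 CPM (60.6 to 75.1) in the Cre- endothelial-like class and at 187 (176 to 198) in the library labelled PHDTiEC, Egln2 at 37.0 and 38.5, and Egln3 at 24.8 and 146. Counts at the 3′ end cannot show a transcript that only lacks a floxed exon, and directions below are therefore given for the library as labelled. Endothelial subcluster 5, described below, held no Cre- barcode, and its leading genes included Pgf, Bnip3, Ankrd37, Adm, Slc16a3 and Egln3, which are known HIF targets.

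Sequence upstream of the receptor genes was available for 2 of the 5 genes, and is shown because Tek and Tie1 had nearly the same distribution over cell types (below). These are the 250 bases before the RefSeq start in GRCm38.p6, 5′ to 3′ on the strand of the gene, with GGAA and its reverse complement TTCC, the core letters of ETS-family sites, in capitals. The Tek stretch is chr4:94739039-94739288 on the plus strand and the Tie1 stretch is chr4:118489850-118490099 on the minus strand. The 2 windows are not alike by the GENCODE annotation. Its Tie1 gene begins at 118490061 on that strand, so most of the Tie1 stretch lies inside the annotated gene. The Tek stretch ends just before the annotated Tek gene.
Tek: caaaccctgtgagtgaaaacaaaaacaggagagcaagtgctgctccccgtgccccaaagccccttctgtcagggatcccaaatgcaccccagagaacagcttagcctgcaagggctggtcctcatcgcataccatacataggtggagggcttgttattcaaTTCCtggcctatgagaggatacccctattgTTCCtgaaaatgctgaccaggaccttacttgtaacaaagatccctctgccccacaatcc
Tie1: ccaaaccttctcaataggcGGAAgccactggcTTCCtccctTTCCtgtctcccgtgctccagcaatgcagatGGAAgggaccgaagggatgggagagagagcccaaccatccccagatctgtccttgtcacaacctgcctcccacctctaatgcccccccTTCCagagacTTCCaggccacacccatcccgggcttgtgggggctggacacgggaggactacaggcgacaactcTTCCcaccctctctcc
The Tek stretch held 2 such matches, and 76.8% of 32851 promoters of this length held as many or more. The Tie1 stretch held 7, which only 3.82% of promoters reached, in a sequence of 60.4% GC against 51.2% for Tek. Neither held ACGTG, the core of a hypoxia response element, which 16.6% of promoters carry on either strand, nor GATAA, which 22.6% carry. Such matches describe letters in a window and do not show that a factor binds there.

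The 5 genes lie apart in the genome (GRCm38 annotation): Angpt1 at chr15:42424723-42676977 on the minus strand, overlapped at its start by the antisense gene Gm17473, Angpt2 at chr8:18690263-18741562 on the minus strand inside Mcph1, which runs on the opposite strand, Tek at chr4:94739289-94874976 and Ptprb at chr10:116275523-116389535 on the plus strand, and Tie1 at chr4:118471191-118490061 on the minus strand. Because the chemistry counts 3′ ends, CPM values of different genes are not set against each other below, and each gene is compared with itself across classes.

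The ligand genes differed in where their UMIs lay. Tubular classes held 86.2% of Angpt1 UMIs under the Cre- label and 89.1% under the PHDTiEC label, against 9.06% and 7.37% for Angpt2. Angpt2 UMIs were spread over unnamed clusters (32.0% and 30.9%), endothelial-like (30.2% and 27.2%), fibroblast-like (6.95% and 17.6%) and pericyte-like barcodes (14.8% and 9.07%), the last of which had its highest level. The receptor genes and Ptprb were concentrated in the endothelial-like class, which held 4.68% and 5.90% of kept barcodes but 89.8% and 86.8% of Tek, 89.1% and 88.9% of Tie1, and 85.7% and 84.2% of Ptprb UMIs.

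**Figure D1:**
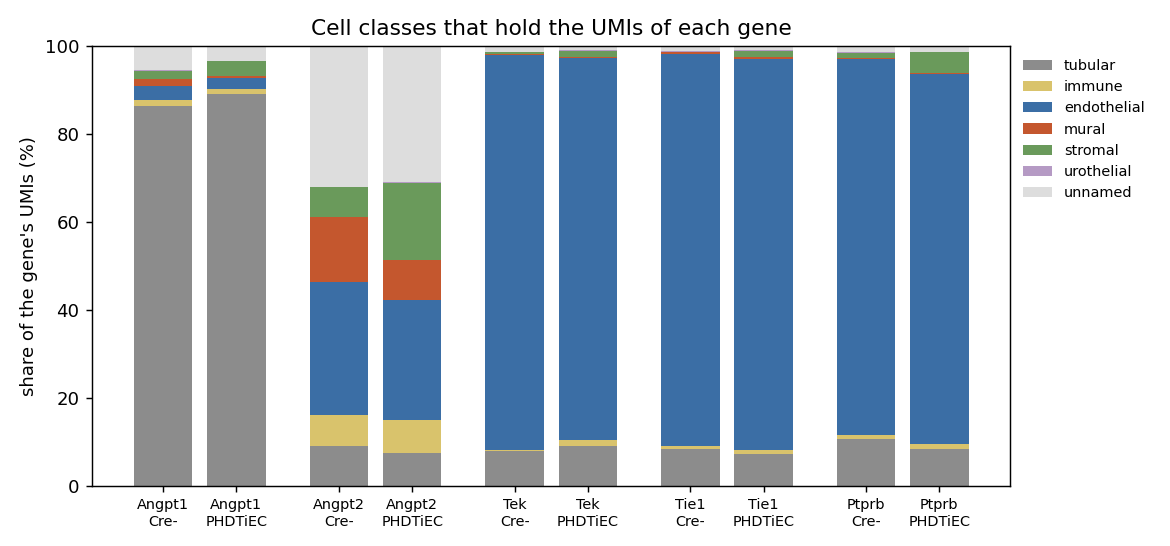
Share of the UMIs of each gene by broad class in the Cre- and PHDTiEC libraries (vertical axis, percent of the gene's UMIs over kept barcodes, 1 stacked bar per gene and library). Tubular classes held 86.2% and 89.1% of Angpt1 UMIs, and the endothelial-like class held 84.2% to 89.8% of Tek, Tie1 and Ptprb UMIs. A share depends on the size and depth of a class as well as on its level.

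Angpt1 was read mainly along the distal nephron and in proximal tubule. In the Cre- library the highest level was in the class named intercalated-like with collecting duct markers, at 19.2 CPM (17.3 to 21.4, 345 UMIs), followed by collecting duct (CD)-like at 18.04 (15.1 to 21.4), pericyte-like at 16.5 (from only 14 UMIs) and proximal tubule (PT)-like at 15.7 (13.3 to 18.4). Neighbours in this order had overlapping intervals. The other intercalated-like class read only 2.51 CPM in Cre- and 2.94 in the library labelled PHDTiEC, from 6 and 4 UMIs. Its median depth was 12364.5 and 11701 UMIs, against 47924 and 52330 in the class with CD markers. Whether barcodes of the latter were mixed was not tested. In the library labelled PHDTiEC the CD-like class was highest at 28.9 CPM (25.3 to 32.9, 232 UMIs), cluster 10 stood at 25.97 (22.8 to 29.5), and the intercalated-like class with CD markers was lower at 19.8 (17.96 to 21.9), beyond counting error. Cluster 10 was led by Slc12a3, the thiazide-sensitive transporter of the distal convoluted tubule. Thick ascending limb (TAL)-like barcodes, also tubular, carried only 16 Angpt1 UMIs in each library (1.32 and 1.196 CPM), and macrophage-like barcodes 4 and 6 (0.19 and 0.25 CPM). The share of barcodes with an Angpt1 UMI was 25.6% and 36.8% in the CD-like class against 0.18% and 0.24% in the macrophage-like class. After thinning to 2000 UMIs per barcode these shares were 4.15% and 5.88% against 0.06% in both libraries, so they stayed above that background.

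Angpt1 was higher in the library labelled PHDTiEC in the CD-like class and in cluster 10. In CD-like barcodes 131 and 232 UMIs gave a log2 ratio (PHDTiEC over Cre-) of 0.68 (0.37 to 1.00), and in cluster 10 116 and 238 UMIs gave 0.88 (0.55 to 1.21). In both the ratio passed 1.5-fold, which 11.6% of 12796 genes with at least 20 UMIs passed in either direction in the CD-like class and 12.3% of 12836 in cluster 10. Without barcodes that carried 3 or more markers of another lineage, the cluster 10 value was 0.35 (-0.20 to 0.91), no longer past 1.5-fold and with an interval that held 0. The intercalated-like class with CD markers, at 0.05 (-0.17 to 0.26), and the PT-like class, at -0.07 (-0.38 to 0.25), did not show it. In these classes 9.82% of 14171 and 10.7% of 12714 genes passed 1.5-fold. The injured PT-like class was also higher, from a low level of 13 and 32 UMIs, 1.39 and 3.80 CPM (log2 ratio 1.45, 0.48 to 2.50). Over all tubular classes the log2 ratio of Angpt1 was 0.39 (0.25 to 0.52).

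The stromal cells usually named as the source of Angpt1 carried few of its UMIs, in classes that were themselves small. Pericyte-like barcodes were 1.71% and 1.58% of those kept, and fibroblast-like barcodes 1.90% and 3.27%. Pericyte-like barcodes had 14 and 7 UMIs, 16.5 CPM (9.04 to 27.7) and 7.09 (2.85 to 14.6), with a log2 ratio of -1.22 whose interval ran from -2.77 to 0.18. Fibroblast-like barcodes had 16 and 41 UMIs, 8.52 and 9.76 CPM, a log2 ratio of 0.20 (-0.67 to 1.13). Neither difference was detectable at this depth. Endothelial-like barcodes read 5.76 and 4.797 CPM from 29 and 30 UMIs (log2 ratio -0.26, -1.05 to 0.52), of which 17 and 24 lay in the subclusters with genes of other lineages described below, and capillary-like barcodes held 4 and 0 UMIs.

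**Figure D2:**
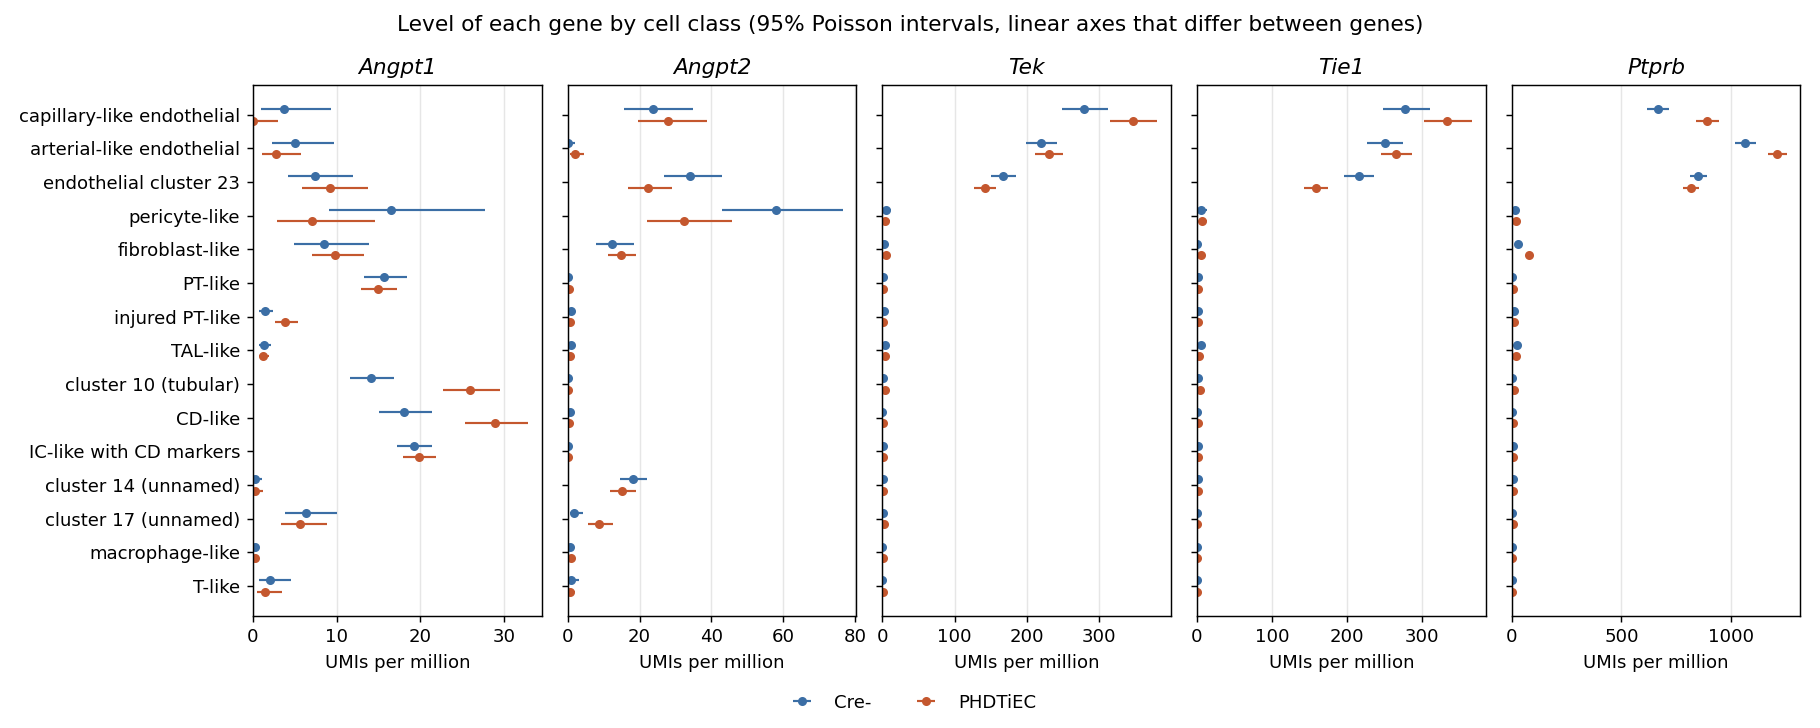
Level of each gene (CPM of summed UMIs, linear axes that differ between genes) by cell class in the Cre- and PHDTiEC libraries, with exact Poisson 95% intervals that cover counting error only. Angpt1 is highest in distal tubular classes, Angpt2 in pericyte-like barcodes, and Tek, Tie1 and Ptprb in the 3 endothelial clusters.

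Angpt2 had its highest level in pericyte-like barcodes in both libraries, at 57.9 CPM (42.8 to 76.5, 49 UMIs) in Cre- and 32.4 (22.2 to 45.7, 32 UMIs) in the library labelled PHDTiEC. The log2 ratio was -0.84 (-1.53 to -0.16), past 1.5-fold in a class where 7.04% of 8457 genes were lower and 16.6% higher by that much. Barcodes with a UMI made up 23.3% and 17.01% of the class, against 0.62% and 0.88% of macrophage-like and 0.47% and 0.26% of T-like barcodes. Thinned to 2000 UMIs, the pericyte-like shares were 10.9% and 8.84% and the macrophage-like shares 0.12% and 0.13%. Median depth in pericyte-like barcodes was nearly equal, 4722 and 4777 UMIs, while their mitochondrial share was 9.70% and 7.17%. Among barcodes with at most 20% mitochondrial UMIs, Angpt2 had 46 and 31 UMIs and a log2 ratio of -0.87 (-1.57 to -0.18). The part of the mitochondrial share in the Angpt2 difference was not tested further. The mean of counts per 10000 over barcodes, which weights each cell equally, gave -0.17, and without barcodes that had 3 or more markers of another lineage the ratio was -0.50 (-1.32 to 0.28), so the direction was not detectable among the barcodes left.

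Cluster 23 and the capillary-like cluster came next. Cluster 23 read 34.1 CPM (26.8 to 42.8, 74 UMIs) and 22.3 (16.9 to 29.002, 56 UMIs), a log2 ratio of -0.61 (-1.14 to -0.09), in a cluster where 16.6% of 11075 genes passed 1.5-fold in either direction. Capillary-like barcodes read 23.8 and 27.9 CPM (26 and 35 UMIs, log2 ratio 0.23, -0.54 to 1.02, and -0.66 with free RNA subtracted), with 22.2% of 9392 genes past 1.5-fold. Arterial-like barcodes had 0 and 5 UMIs, with an exact upper limit of 2.08 CPM for the 0 of Cre- (the floor of 3 counts is 1.69 CPM). Angpt2 was thus low in arterial-like barcodes of both libraries, while capillary-like and cluster 23 barcodes carried it. In the order of levels, the intervals of pericyte-like barcodes and the next cluster overlapped in both libraries.

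Over the whole endothelial-like class Angpt2 stood at 19.9 CPM (16.2 to 24.2, 100 UMIs) and 15.3 (12.4 to 18.7, 96 UMIs), a log2 ratio of -0.37 (-0.79 to 0.05). The sign of that ratio turned with the barcodes included. Of the Angpt2 UMIs, 87 of 100 in Cre- and 67 of 96 in the library labelled PHDTiEC lay in subclusters 2, 3 and 4, which also carried tubular and podocyte genes, pericyte genes and smooth muscle genes, and which held 55.5% and 48.7% of the endothelial-like UMIs. Pericyte and smooth muscle markers summed to 7465 and 8258 CPM in cluster 23, against 199 and 102 in arterial-like and 239 and 136 in capillary-like barcodes. Without subclusters 2, 3, 4 and 9 (the last with macrophage genes), 11 and 29 UMIs remained, 5.48 and 9.75 CPM, and the log2 ratio was 0.83 (-0.21 to 1.98). Without barcodes that had 3 or more markers of another lineage it was 0.53 (-0.49 to 1.63). Neither direction was detectable at this depth. Whether pericyte or smooth muscle RNA, or such cells themselves, were in these barcodes was not tested.

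Other classes with Angpt2 were fibroblast-like (12.2 and 14.8 CPM, log2 ratio 0.27, -0.44 to 1.03), cluster 14, led by Slc14a2 and Fst (18.05 and 15.1 CPM), and cluster 17, led by Igfbp2, Foxd1 and Wt1. In cluster 14 single barcodes carried 17 of 90 and 41 of 70 UMIs, and the log2 ratio moved from -0.25 to -1.22 without them. In cluster 17 the counts were 5 and 28 UMIs, 1.77 (0.58 to 4.14) and 8.69 CPM (5.78 to 12.6), a log2 ratio of 2.29 (0.90 to 4.02). Angpt2 did not follow 1 lineage: it was read in mural, stromal and capillary classes and in the unnamed clusters 14 and 17. Over all tubular classes it was 0.45 and 0.35 CPM, against 0.78 and 0.96 in macrophage-like barcodes.

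Tek marked the endothelium in both libraries at nearly the same level, 210 CPM (197 to 223, 1056 UMIs) and 218 (207 to 230, 1364 UMIs), a log2 ratio of 0.06 (-0.06 to 0.17). A Tek UMI was found in 71.8% and 73.2% of endothelial-like barcodes and in 0.13% and 0.56% of macrophage-like barcodes, at median depths of 8096 and 7786 UMIs in the endothelial-like class. Thinned to 2000 UMIs the endothelial-like shares were 35.0% and 37.9%. The capillary-like cluster was highest, at 279 CPM (249 to 312) and 347 (315 to 381), arterial-like was next at 219.5 (198 to 242) and 230 (212 to 250), and cluster 23 lowest at 167 (150 to 185) and 142 (127 to 157), with no overlap between neighbours in either library. Cluster 23 barcodes were deeper, at a median of 23240 and 21841 UMIs, against 6995 and 8905 in arterial-like and 4213 and 3444 in capillary-like barcodes. The UMIs of cluster 23 included mural genes, so its lower CPM does not show less Tek per barcode. The ratio differed in sign between the clusters: 0.31 (0.10 to 0.53) in capillary-like, 0.07 (-0.12 to 0.26) in arterial-like and -0.24 (-0.45 to -0.02) in cluster 23. None of these reached 1.5-fold, and the differences between clusters were not tested. The estimate of free RNA moved with the label in the capillary-like cluster, where it was 56.6% of UMIs in Cre- and 16.7% in the library labelled PHDTiEC. Over the endothelial-like class it was 20.8% and 14.3%. The estimate was scaled from markers of tubular lineages and neutrophils, so RNA of mixed barcodes counts in it as well. With free RNA subtracted, the capillary-like ratio was -0.61 for Tek, -0.66 for Tie1 and -0.49 for Ptprb, each of the opposite sign to the value without subtraction. Without barcodes that had 3 or more markers of another lineage, the capillary-like ratio was 0.04 (-0.21 to 0.29) for Tek and 0.05 (-0.21 to 0.30) for Tie1. No direction is drawn from them.

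Tie1 had the same order of clusters as Tek. The endothelial-like class stood at 242 CPM (228 to 256, 1216 UMIs) and 236 (225 to 249, 1479 UMIs), a log2 ratio of -0.03 (-0.14 to 0.08). Capillary-like barcodes read 278 and 334 CPM, arterial-like 250.5 and 266, and cluster 23 216 and 158, with log2 ratios of 0.26 (0.05 to 0.48), 0.09 (-0.09 to 0.26) and -0.45 (-0.64 to -0.25). In Cre- the interval of each cluster overlapped the next, and in the library labelled PHDTiEC none did. Both receptors were found in the same barcode in 244 of 400 (61.0%) and 343 of 549 (62.5%) endothelial-like barcodes, and at least 1 of Tek, Tie1 and Ptprb in 94.8% and 95.6%. In the deeper cluster 23 both receptors were found in 88.9% and 77.9% of barcodes, the highest share of the endothelial clusters. Arterial-like shares were 51.9% and 64.4%, and capillary-like shares 54.3% and 52.1%.

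Ptprb was higher in the library labelled PHDTiEC in the endothelial-like class by a small margin, 886 CPM (860 to 912, 4459 UMIs) and 988 (963 to 1013, 6177 UMIs), a log2 ratio of 0.16 (0.10 to 0.21). Its order differed from that of the receptors: arterial-like barcodes were highest at 1065 and 1210 CPM (log2 ratio 0.18, 0.10 to 0.27), while capillary-like barcodes stood at 667 and 890 (0.42, 0.28 to 0.55) and cluster 23 at 850 and 816 (-0.06, -0.15 to 0.03). Capillary-like was the lowest of the 3 clusters in Cre-, and in the library labelled PHDTiEC its interval overlapped that of cluster 23. With free RNA subtracted, the endothelial-like ratio was 0.045, and the arterial-like ratio was 0.07. No gene of the 5 passed 1.5-fold in the endothelial-like class, where 5.72% of 12752 genes were higher and 6.32% lower by that much. In the arterial-like cluster, where 16.2% of 10326 genes passed 1.5-fold in either direction, Tek, Tie1 and Ptprb did not.

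**Figure D3:**
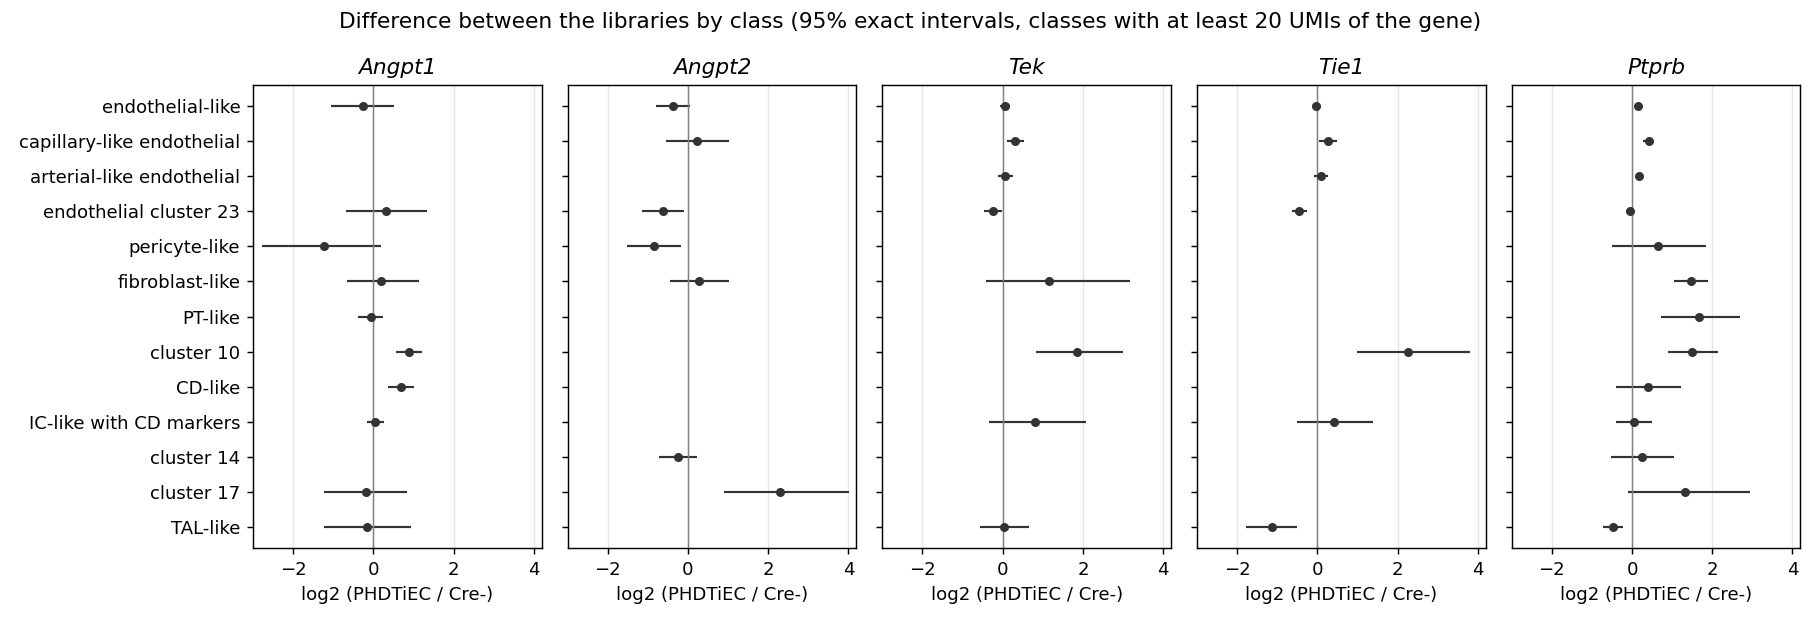
Log2 ratio of CPM (library labelled PHDTiEC over Cre-) for each gene by cell class, with exact binomial 95% intervals that cover counting error only, and a line at 0. In the endothelial-like class Tek (0.06), Tie1 (-0.03) and Ptprb (0.16) sit near 0, while Angpt2 is lower in pericyte-like barcodes (-0.84) and Angpt1 higher in CD-like barcodes (0.68).

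Clustering the endothelial-like barcodes again, without the 5 genes, gave 10 subclusters. Subcluster 1 (79 and 83 barcodes) was led by Gm26917, AY036118, Gm42418, Lars2 and mitochondrial genes, and was kept in the endothelial-like values. The authors left out a cluster rich in Gm26917 and Gm42418, which they tied to ribosomal RNA contamination. Ptprb in subcluster 1 stood at 666 and 1009 CPM, a log2 ratio of 0.60 (0.31 to 0.89). Subcluster 0 (76 and 130 barcodes), named fenestrated capillary-like from Plvap and Aplnr, had the highest Tek, 488 CPM (419 to 565) and 530 (471 to 593), and the highest Tie1, 469 and 489, with log2 ratios of 0.12 (-0.15 to 0.39) and 0.06 (-0.22 to 0.34). Angpt2 there rested on 7 and 19 UMIs, 19.1 and 33.5 CPM (0.81, -0.50 to 2.31), and Ptprb stood at 866 and 1144 CPM (0.40, 0.21 to 0.60). Ptprb was highest in subcluster 7, led by Gkn3 and Vwf (39 and 33 barcodes), at 1659 CPM (1524 to 1803) and 2511 (2327 to 2706), a log2 ratio of 0.60 (0.43 to 0.76). Single barcodes of the endothelial-like class held up to 90 and 88 Ptprb UMIs, a spread between cells that the interval does not cover. The share of all genes past 1.5-fold was not computed for subclusters. Highest receptor and highest phosphatase levels thus fell in different subclusters.

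In subcluster 8, named descending vasa recta-like (24 and 29 barcodes), the receptor ratios had opposite signs: Tek was 199.5 CPM (155 to 252.5) and 124 (87.4 to 170), a log2 ratio of -0.69 (-1.30 to -0.10), and Tie1 292 (238 to 355) and 351 (288 to 424), a log2 ratio of 0.27 (-0.14 to 0.67). The difference between those ratios was not tested. Subcluster 9 had the lower Ptprb in the library labelled PHDTiEC, 935 and 473 CPM (-0.98, -1.33 to -0.64), in 19 barcodes of each library. Subcluster 5, led by Pgf, the gene of placental growth factor, and other genes named above, held 77 barcodes of the library labelled PHDTiEC and 0 of the other, so it had no ratio. In it Tek stood at 243 CPM (216 to 273), Tie1 at 223 (197 to 252), Ptprb at 1022 (966 to 1082) and Angpt2 at 7.56 (3.45 to 14.3, 9 UMIs), and Angpt1 had 0 UMIs. A cluster held by 1 library may be that library rather than a cell state.

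**Figure D4:**
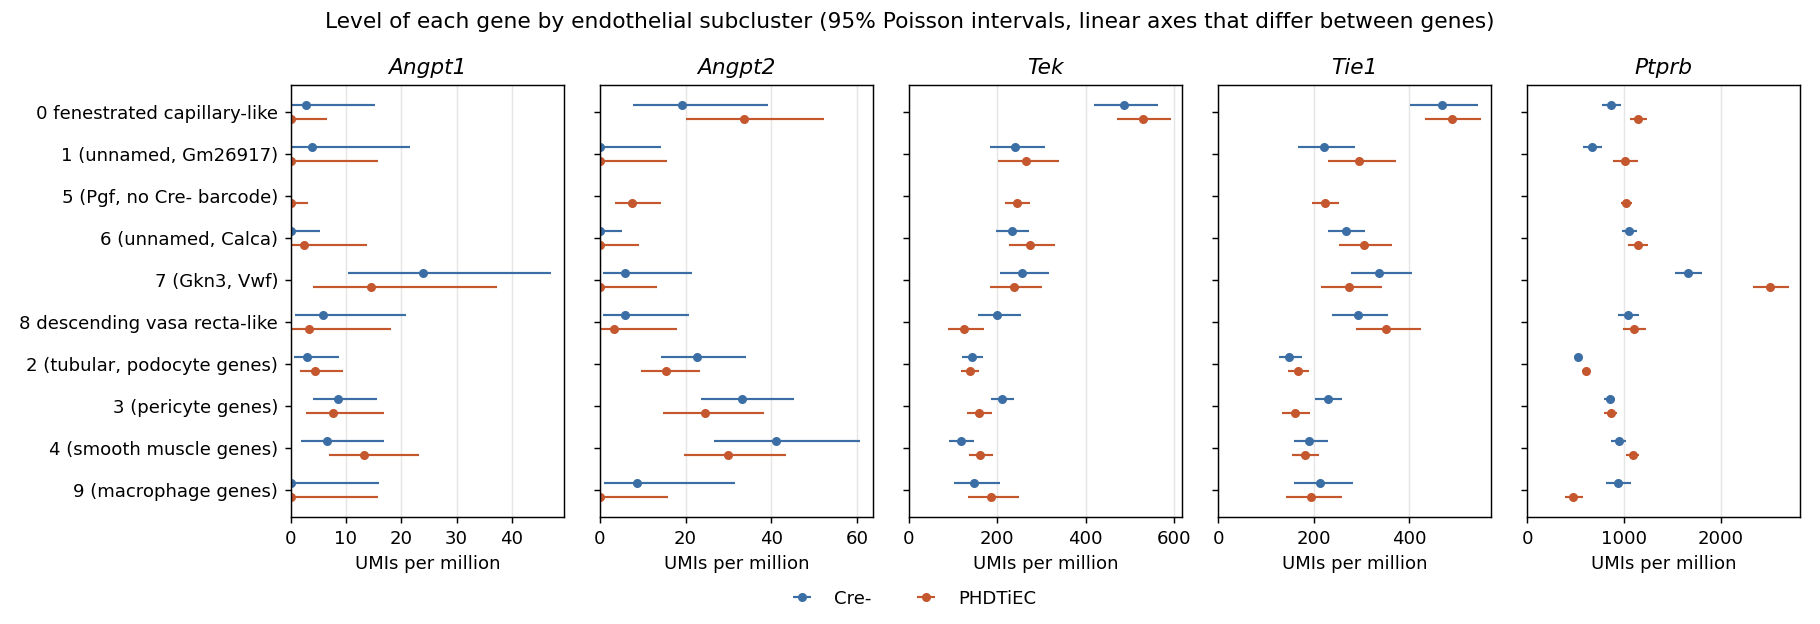
Level of each gene (CPM, linear axes that differ between genes) in the 10 endothelial subclusters of the Cre- and PHDTiEC libraries, with exact Poisson 95% intervals for counting error. Tek and Tie1 are highest in subcluster 0 and Ptprb in subcluster 7. Angpt2 is highest in subclusters 3 and 4, which carry mural genes, in Cre-, and in subclusters 0 and 4 in the library labelled PHDTiEC.

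Receptor and phosphatase UMIs were also found outside the endothelium. Over all tubular classes the log2 ratio was 0.50 (0.11 to 0.89) for Tek, -0.09 (-0.47 to 0.30) for Tie1 and 0.01 (-0.16 to 0.18) for Ptprb, while single classes went further either way. In fibroblast-like barcodes (162 and 304) Ptprb had 55 and 338 UMIs, 29.3 CPM (22.1 to 38.1) and 80.5 (72.1 to 89.5), a log2 ratio of 1.46 (1.04 to 1.90). Tek had 4 and 20 UMIs (1.16, -0.42 to 3.17, an interval that holds 0). Tie1 had 0 and 24, at least 3.58-fold higher against the floor of 3 counts in the Cre- library, or 1.43 on the log2 scale at the lower end of the counting interval of that ratio. These 3 of the 5 genes passed 1.5-fold upward in a class where 12.7% of 11569 genes were higher and 5.48% lower by that much. Endothelial markers moved with them in that class: Pecam1 was 1.60 and 15.002 CPM, Cdh5 1.06 and 10.2, and Flt1 4.26 and 32.4, although the sum of the 10 markers was 313 and 375 because Emcn (140 and 126) and Eng (135 and 135) made up most of it. Without barcodes that had 2 or more endothelial markers, Tek had 1 and 2 UMIs and Tie1 0 and 1, whereas Ptprb kept 10 and 60, 12.3 and 43.1 CPM, a log2 ratio of 1.81 (0.83 to 2.94) over 85 and 153 barcodes. Without barcodes that had 3 or more markers of another lineage, 36 and 62 barcodes were left and the ratio was -0.24 (-2.03 to 1.72).

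Tubular classes carried receptor UMIs as well. In TAL-like barcodes Tie1 had 65 and 33 UMIs (log2 ratio -1.12, -1.77 to -0.50), Tek 45 and 51, and Ptprb 294 and 235 (-0.47, -0.72 to -0.22). In cluster 10 Tek had 10 and 40 UMIs (1.84, 0.82 to 3.01), Tie1 6 and 32 (2.26, 0.98 to 3.81) and Ptprb 30 and 95 (1.51, 0.90 to 2.15). Without barcodes that had 2 or more endothelial markers, TAL-like barcodes kept 2 and 0 Tie1, 0 and 2 Tek and 9 and 22 Ptprb UMIs, the last with a log2 ratio of 1.11 (-0.06 to 2.41), of the opposite sign. By the same filter cluster 10 kept 0 and 1 Tek, 3 and 2 Tie1 and 11 and 10 Ptprb UMIs. Most Tek, Tie1 and Ptprb UMIs of TAL-like barcodes in both libraries, and of cluster 10 in the library labelled PHDTiEC, were therefore in barcodes that also carried endothelial genes, and what those barcodes contained was not tested.

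Over the sums of 25 classes in both libraries (50 sums, 14633 genes), the genes whose pattern was most like each of the 5 were found by Pearson correlation of log2(CPM + 1), given as a description, since sums of a library share its depth and free RNA. Tek was closest to Grrp1 and Tie1 (r = 0.97 for each), and Tie1 to Grrp1 (0.98) and Tek. Ptprb was closest to Clec14a (0.95), an endothelial surface lectin-like protein, and to Mmrn2 and Tek. Angpt2 was closest to Gdf10 (0.83), Mmp17, Spry4, Cd248 and Lama4 (0.81), and Angpt1 to Plcl1 (0.83), St6galnac2, Tbx2, A4galt and Grb14 (0.78). Angpt1 and Angpt2 had r = 0.01 with each other. Angpt2 had r of 0.52 with Tek, 0.50 with Tie1 and 0.54 with Ptprb, and Angpt1 had 0.12, 0.09 and 0.20.

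Other genes of the pathway, taken from a list of 40, differed little in the endothelial-like class. Of 37 with at least 20 UMIs, 2 were higher and 1 lower by 1.5-fold, against the 5.72% and 6.32% of all genes given above, and the median log2 ratio was 0.13 against -0.01 for all genes. The 3 were Itgb3, an integrin subunit, at 13.7 and 23.5 CPM (0.78, 0.36 to 1.21), the adaptor Dok2 with 7 and 19 UMIs (1.13, -0.19 to 2.62), and the adaptor Grb7 with 27 and 22 (-0.61, -1.49 to 0.26). Of these 3, only Itgb3 had an interval that left out 0. Among the genes that VE-PTP and Tie2 act on, Cdh5 (VE-cadherin) read 610 and 640 CPM (0.07, 0.00 to 0.14), and Cldn5, a tight-junction claudin repressed by FOXO1, 692 and 464 CPM (-0.58, -0.65 to -0.51), just short of 1.5-fold. Foxo1, the transcription factor that Tie2 signalling restrains through AKT, read 114 and 96.7 CPM (-0.24, -0.41 to -0.08). Klf2, a flow-induced endothelial factor, read 1830 and 2160 CPM (0.24, 0.20 to 0.28). Of the HIF alpha subunits, Hif1a was at 118 and 148 CPM (0.32, 0.17 to 0.47) and Epas1 at 676 and 617 (-0.13, -0.20 to -0.07). The kinase and adaptor genes Pik3r1, Akt1 and Shc1 gave 0.08, -0.08 and 0.07, with intervals that held 0.

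**Figure D5:**
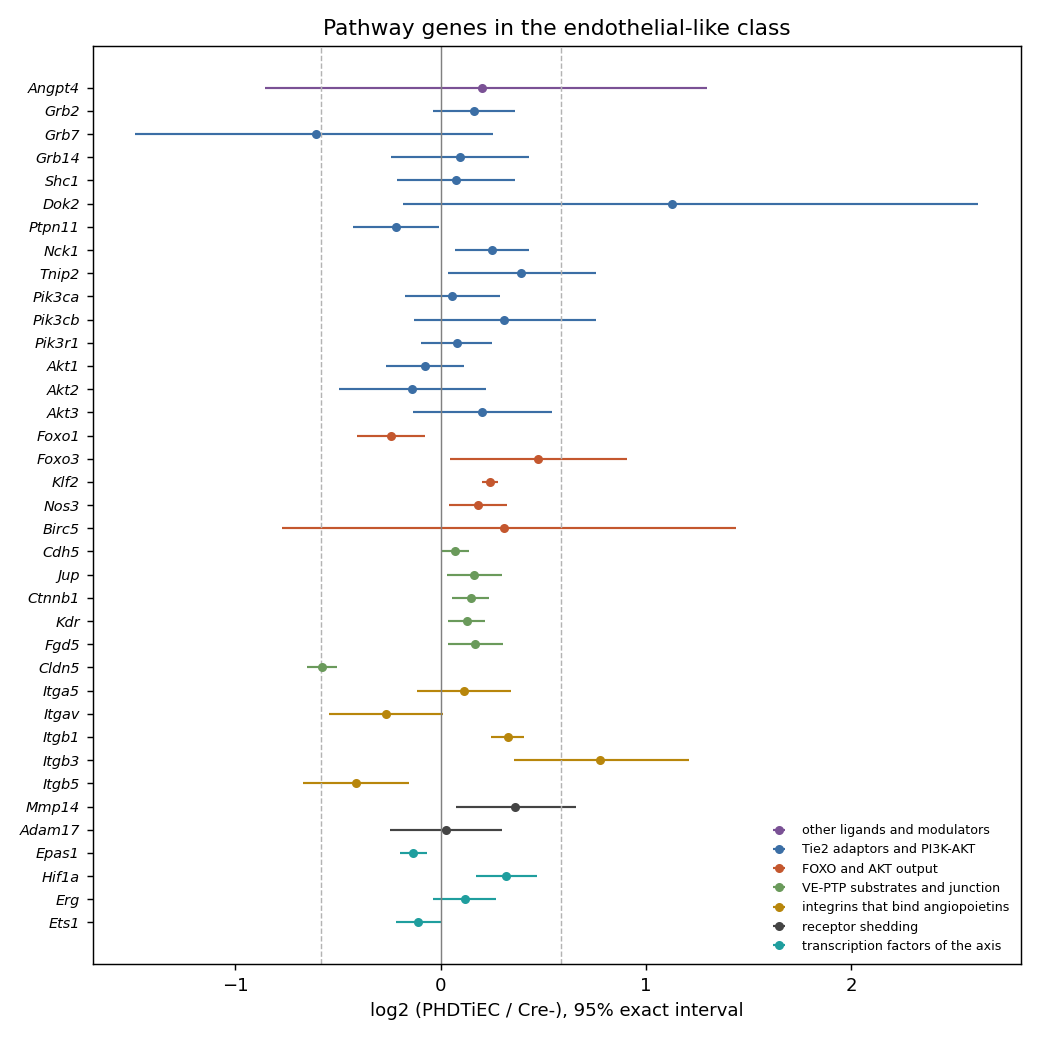
Log2 ratio of CPM (library labelled PHDTiEC over Cre-) in the endothelial-like class for the pathway genes with at least 20 UMIs, with exact binomial 95% intervals for counting error and lines at 0 and at 1.5-fold. Itgb3 (0.78) and Dok2 (1.13) lie above and Grb7 (-0.61) below the 1.5-fold lines, with Cldn5 (-0.58) just inside.

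A further ligand gene, Angpt4, was read chiefly in pericyte-like barcodes, with 32 and 36 UMIs, 37.8 CPM (25.9 to 53.35) and 36.5 (25.5 to 50.5), a log2 ratio of -0.05 (-0.78 to 0.68). It stood level there while Angpt2 was lower in the library labelled PHDTiEC, though the difference between the 2 ratios was not tested. Of 29 pathway genes with enough UMIs in pericyte-like barcodes, 5 were higher (Cdh5, Jup, Cldn5, Mmp14 and Ets1) and 1 lower (Itgb3, -0.85, -2.09 to 0.33), with a median of 0.24 against 0.10 for all genes. The share of all genes in that class was 16.6% higher and 7.04% lower, so the count is near the background. Cdh5 and Cldn5 are endothelial genes, and the sum of the 10 endothelial markers was 146 and 231 CPM there. Mmp14, a membrane metalloproteinase, read 18.9 and 37.5 CPM (0.99, 0.11 to 1.93). In fibroblast-like barcodes 7 of 35 were higher and 0 lower, with a median of 0.19 against 0.07, where 12.7% of all genes were higher and 5.48% lower. Of these 7, Cdh5 (3.27, from 2 and 43 UMIs), Cldn5 (3.42, from 1 and 24) and Kdr (3.54, from 1 and 26) are endothelial genes, and Svep1, a matrix protein that binds Tie1, was level at 70.8 and 71.0 CPM.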

How the data were processed

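Injured kidneys of 1 Cre- and 1 PHDTiEC mouse were dissociated and captured with 10x Genomics 3′ v3.1 chemistry, and the authors aligned and counted reads with Cell Ranger against mm10, depositing raw UMI counts per gene and barcode for all droplets (136004367 and 146758812 UMIs). From these counts, barcodes with 500 to 100000 UMIs, at least 200 genes and at most 50% mitochondrial UMIs were kept. They were log-normalised and clustered in Seurat 5.3.0 (R 4.3.3) on variable genes without the 5 genes described, with 20 principal components at resolution 0.8, and clusters were named from marker lists. UMIs were summed per class and library and expressed as CPM of the class total, with exact Poisson intervals. Shares and ratios had exact Clopper-Pearson intervals at 95% (SciPy 1.17.1). A gene was counted as past 1.5-fold only where the libraries together held at least 20 of its UMIs. PCR duplicates were collapsed by UMI. The free RNA profile came from barcodes under 100 UMIs, and its share in a class was scaled from markers of lineages foreign to that class. That share therefore also counts mixed barcodes. The ratio and interval steps were tested on simulated data. Samples carried the genotype given in their labels, and the members and lists were chosen with earlier results of these data known. Named genes were the 5 members, the pathway list, the markers, Egln1 to Egln3 and the 5 genes most like each member. Of 32285 gene identifiers, 32158 matched the GENCODE annotation used for positions. Alternatives covered barcode filters, clustering, scaling with TMM (edgeR 4.0.16), equal weighting of cells, free RNA and mixed barcodes. Scrublet (scanpy 1.11.5) marked 0 barcodes in both libraries, so it did not work and doublets were not removed. Upstream sequences came from RefSeq.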

Additional observations from a re-analysis of the deposited data

Results flagged for a closer look

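The log2 ratio (library labelled PHDTiEC over Cre-) of 4 of the genes had one sign in some classes and the other in others, with intervals for counting error that left out 0. The share of all genes that do so was not computed, so this count does not set these genes apart from others. The differences between classes were not tested, and with 1 mouse per genotype the label and the mouse cannot be told apart. Angpt2 was lower in pericyte-like barcodes (-0.84) and cluster 23 (-0.61) and higher in cluster 17 (2.29), while its pericyte-like value was -0.17 as the mean of counts per 10000 and -0.50 (-1.32 to 0.28) without barcodes with 3 or more markers of another lineage. Tek was lower in cluster 23 (-0.24) and higher in capillary-like barcodes (0.31) and cluster 10 (1.84). In cluster 23 that filter left 1 and 5 barcodes, in which Tek was 1.29 from 1 and 14 UMIs. Tie1 was lower in cluster 23 (-0.45) and TAL-like barcodes (-1.12) and higher in capillary-like barcodes (0.26) and cluster 10 (2.26). Ptprb was lower in intercalated-like (-1.58, from 21 and 4 UMIs) and TAL-like barcodes (-0.47), the latter turning to 1.11 from 9 and 22 UMIs without barcodes with 2 or more endothelial markers. It was higher in arterial-like (0.18), capillary-like (0.42), fibroblast-like (1.46) and PT-like barcodes (1.66, from 12 and 50 UMIs), in cluster 10 (1.51) and in cluster 25, a cluster of cycling cells led by Cenpf and Top2a (1.27). Its values in intercalated-like barcodes, PT-like barcodes and cluster 25 were not recomputed without barcodes with endothelial markers. The capillary-like values of Tek, Tie1 and Ptprb were negative (-0.61, -0.66 and -0.49) with free RNA subtracted. Without barcodes with 2 or more endothelial markers, cluster 10 kept 0 and 1 Tek, 3 and 2 Tie1 and 11 and 10 Ptprb UMIs, and TAL-like barcodes kept 2 and 0 Tie1 UMIs.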

How the results depend on the processing

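The 7 ratios of Angpt1, Angpt2, Tek, Tie1 and Ptprb that answer the comparison in endothelial-like, pericyte-like and fibroblast-like classes were recomputed under the alternative settings. This gave 106 values over the 7 ratios, of which 96 lay inside the main counting interval of their ratio and 10 did not, and 13 had the other sign. A wide interval, as for Angpt1 in pericyte-like barcodes (-2.77 to 0.18), holds most values, so lying inside it does not show that a ratio is stable. In endothelial-like barcodes, Angpt2 (-0.37) became 0.53 without barcodes with 3 or more markers of another lineage, 0.29 as the mean of counts per 10000, 1.93 in strict endothelial barcodes and 0.83 without subclusters 2, 3, 4 and 9 (chosen after seeing the data). Strict barcodes gave 0.26 for Tek, 0.14 for Tie1 and 0.25 for Ptprb. Free RNA subtraction gave -0.15 for Tie1 and 0.045 for Ptprb, and the mean of counts per 10000 gave 0.27 for Ptprb. Among 27 other ratios, 43 of 367 values left that interval and 41 had the other sign, of which 3 reversed a ratio past 1.5-fold: Ptprb in pericyte-like barcodes (-0.28 as the mean of counts per 10000 and -1.17 without barcodes with 2 or more endothelial markers) and in fibroblast-like barcodes (-0.24 without barcodes with 3 or more markers of another lineage). The cause was not tested. TMM scaling shifted all ratios by -0.11 in pericyte-like barcodes and in cluster 10. The doublet alternative gave no value because no barcode was marked. Leaving out a replicate was not possible with 1 library per genotype. No paired analysis was possible because each genotype had 1 library. Depth limits Angpt1 and Angpt2 in stromal and endothelial classes, where 0 to 100 UMIs carry each value.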
